A study of Mus musculus with 2 samples.

Results

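Mature CCR7 dendritic cells (DC) with cDC1 genes were chosen cell by cell from scRNA-seq of mouse spleen. The rule used raw counts of unique molecular identifiers (UMIs), which count captured RNA molecules. A cell was selected when Ccr7, Fscn1, Socs2 and Cacnb3 together had at least 4 UMIs and Cadm1, Clec9a, Xcr1 and Cd8a together had at least 2. It also needed fewer than 5 UMIs of Siglech, a plasmacytoid DC marker, and fewer than 4 of the proliferation genes Top2a, Mki67, Birc5 and Pclaf. The rule found 469 of 19339 cells, of which 389 were among 7814 cells of the WT library and 80 among 11525 cells of the H2-Aa cit/cit library. Each library came from 3 pooled female mice aged 4 months that were naive (untreated), and the labels give H2-Aa +/+ (WT) and H2-Aa cit/cit (hereafter cit/cit) as the genotypes. H2-Aa encodes the alpha chain of the MHC-II molecule I-A, and the cit (citation) allele is an effectively null germline allele that affects splicing. CD11c was used to enrich DC, and live CD45.2+ CD11c+ cells were sorted. With 1 library per genotype there is no replicate error, no difference was tested, and genotype and library cannot be told apart.

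Conventional DC of the cDC1 lineage take up dead cells and cross-present their antigens to CD8 T cells, and they depend on the transcription factors IRF8 and BATF3. When a DC matures, it takes up less antigen, acquires the chemokine receptor CCR7, which guides it into T cell zones, and makes costimulatory proteins and cytokines. Mature DC of different origin share this program, so a cDC1 that has matured is recognised by what remains of its cDC1 genes.

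Selected cells were 4.98% of WT cells (95% exact binomial interval 4.51% to 5.48%) and 0.694% of cit/cit cells (0.551% to 0.863%). The WT share was 7.17-fold that of cit/cit (5.63 to 9.24). Mature cells without cDC1 genes, which met all limits but had fewer than 2 cDC1 UMIs, were 19.1% of WT and 9.94% of cit/cit cells, a ratio of 1.92 (1.78 to 2.08). Resting cDC1-like cells, with at least 4 UMIs of the 4 cDC1 genes and at most 1 of the 4 maturation genes, were 8.22% and 6.57%, a ratio of 1.25 (1.12 to 1.39). The ratio between the libraries was thus larger for the selected cells than for either neighbouring class. All intervals here cover counting error alone and not the spread between mice. The libraries shared 31 cell barcodes, none of them in a selected cell.

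The cDC1 side of the rule was also met by resting cells with cDC2 genes, and the source of their UMIs was not tested. In resting cDC2-like cells, with at least 6 UMIs of Sirpa, Cd209a, Clec4a4, Clec10a and Cd4 and at most 1 maturation UMI, 2 or more cDC1 UMIs were found in 16.0% of 1157 WT cells (13.9% to 18.2%, median depth 8569 UMIs). Among mature CCR7 cells of WT, which were shallower (median 6787.5 UMIs), the share was 20.7% of 1882 cells (18.9% to 22.6%), above that of the resting cells. The cit/cit share was 6.53% of 1226 mature cells (5.21% to 8.06%, median 5336 UMIs), below the 9.79% of 2104 resting cDC2-like cells (8.55% to 11.1%, median 7588 UMIs). That reference was deeper than the mature cells and was chosen after seeing the data, and a share below it is not read as expression. The reference set no upper limit on cDC1 UMIs. Of its cells, 101 in WT and 89 in cit/cit had 4 or more, which also meets the limits given for resting cDC1-like cells. At 4 or more cDC1 UMIs the order was the same, with 11.7% of mature (10.3% to 13.2%) and 8.73% of resting cDC2-like cells (7.17% to 10.5%) in WT, whose intervals overlap, against 2.61% (1.79% to 3.66%) and 4.23% (3.41% to 5.18%) in cit/cit. By this share, which was not matched for depth, the selected fraction lay above the reference in WT and not in cit/cit. Since the reference is not a class without cDC1 genes, its share is not a level of cells lacking them. The 80 cit/cit cells are called by the rule they met. With each cell thinned to 2000 UMIs, which leaves out 46 cit/cit mature cells without cDC1 genes that had fewer, Irf8 was found in 23.8% of cit/cit selected cells (14.9% to 34.6%) and 11.3% of cit/cit mature cells without cDC1 genes (9.46% to 13.3%). The part of doublets in that difference was not tested.

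**Figure D1:**
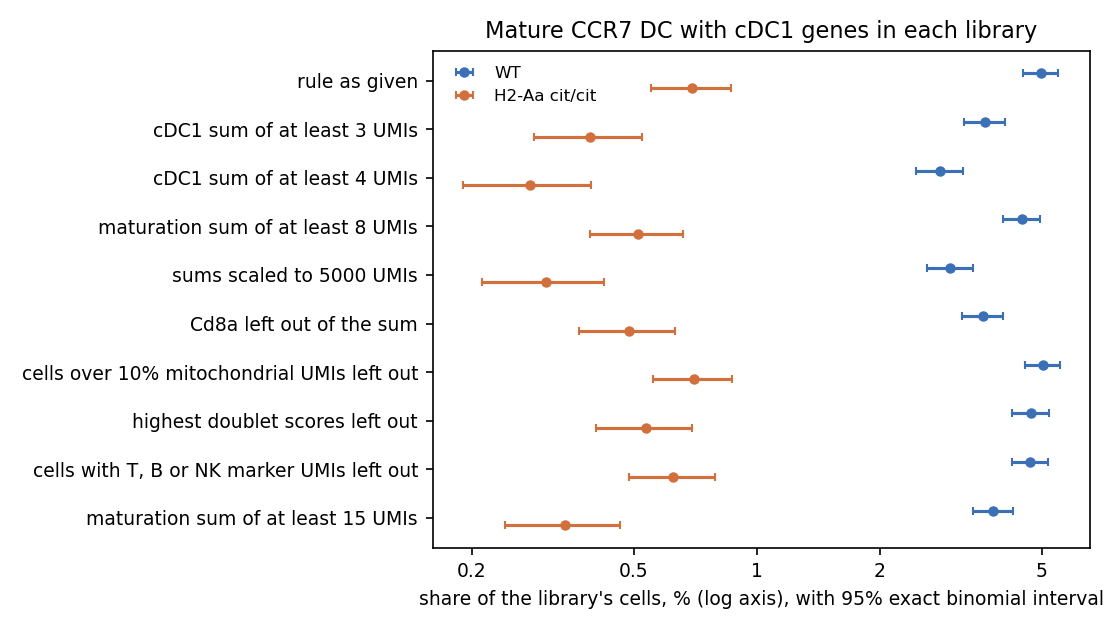
Share of each library's cells (%, log axis) in mature CCR7 DC with cDC1 genes under the rule as given and 9 other settings; points are shares of WT (blue) and cit/cit (orange) cells and bars are 95% exact binomial intervals. WT lay above cit/cit at every setting, with 4.98% against 0.694% under the rule as given.

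The genes of the rule are a description, since they chose the cells. Ccr7 (ENSMUSG00000037944, GRCm38 chr11:99144196-99155077, minus strand), the chemokine receptor for CCL19 and CCL21, was seen in 379 of 389 WT (97.4%) and 72 of 80 cit/cit selected cells. Fscn1, which encodes the actin-bundling protein fascin, was seen in 85.9% and 80.0%, Socs2, a suppressor of cytokine signaling, in 85.9% and 78.8%, and Cacnb3, a calcium channel beta subunit, in 87.7% and 61.3%. The sum of the 4 maturation genes had a median of 36 UMIs in WT (quartiles 15 and 60) and 12.5 in cit/cit (6 and 22.5). Most WT cells thus lay far above the threshold of 4, while many cit/cit cells lay close to it. With exactly 4 maturation UMIs, just inside the rule, there were 14 WT and 7 cit/cit cells, and with 3, just outside it, 26 and 8.

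Among the cDC1 genes of the rule, Cadm1, a cell adhesion molecule, was seen in 70.2% of WT and 53.8% of cit/cit selected cells. Clec9a, the receptor for actin exposed on dead cells, was seen in 37.8% and 31.3%. Xcr1, the receptor for the chemokine XCL1, was seen in 18.3% and 17.5%, and Cd8a, which mouse spleen cDC1 carry as a homodimer, in 58.6% and 40.0%. No more than 1 of the 4 genes was seen in 172 of 389 WT cells (44.2%) and in 56 of 80 cit/cit cells (70.0%). Cd8a alone met the rule in 50 WT (12.9%) and 21 cit/cit cells (26.3%). Exactly 2 cDC1 UMIs were held by 106 WT and 35 cit/cit cells, just inside the threshold, and 197 WT and 91 cit/cit mature cells with 1 such UMI lay just outside.

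Depth and other cell types differed between the libraries' selected cells. The median was 11417 UMIs in WT (1806 to 33904) and 8147 in cit/cit (2459 to 29546), against 6306 and 5202.5 in mature cells without cDC1 genes. Among the highest Scrublet doublet scores were 44 WT (11.3%) and 24 cit/cit selected cells (30.0%), against 6.25% and 9.22% of all cells. Markers of T cells summed to 4.31 CPM (UMIs of a gene in the cells of a class, scaled to 1e+06 UMIs of that class) in WT and 17.7 in cit/cit, with Cd8b1 the most abundant, Cd3g at 0 UMIs in WT and Cd3d, Cd3e and Cd3g at 0 in cit/cit. B cell markers summed to 39.4 and 29.1 CPM, with Cd79a at 0 UMIs in cit/cit. Macrophage markers summed to 60.3 and 88.5 CPM, led by Adgre1 with Cd5l at 0. For C1qa, C1qb and C1qc the cit/cit cell with most UMIs held 8 of 9, 17 of 18 and 11 of 11. In WT such a cell held 18 of 47, 10 of 35 and 14 of 26. Neutrophil markers summed to 1.72 and 11.4 CPM, plasma cell markers to 5.81 and 6.32 and erythroid markers to 5.17 and 6.32. The 4 NK cell markers had 0 UMIs in both, and the limit of 3 UMIs set for a count of 0 is 0.646 CPM in WT and 3.79 in cit/cit. The 19 cDC2 genes, led by Zeb2, summed to 813 CPM in WT (2108 in mature cells without cDC1 genes) and 2088 CPM in cit/cit, where only Mgl2 was at 0. The part of depth, ribosomal and mitochondrial shares, doublets and other cell types in the values below was not tested.

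Of the cDC1 markers outside the rule, Irf8, Naaa, Tlr3, Wdfy4 and Itgae had more RNA in WT selected cells than in WT mature cells without cDC1 genes, and Batf3 and Btla had less. Irf8, the lineage-defining transcription factor, was at 315 CPM in WT selected cells, 102 in mature cells without cDC1 genes and 1169 in resting cDC1-like cells. Its log2 ratio was 1.62 (95% interval 1.50 to 1.74) against the former and -1.89 (-1.97 to -1.81) against the latter. Naaa, an acid amidase, was at 63.1, 6.71 and 698 CPM. Tlr3, the sensor of double-stranded RNA, had 51 UMIs in the selected cells and 3 in mature cells without cDC1 genes, and was at 132 CPM in resting cells. For each of these 3 genes the selected cells thus stood between the other classes. Wdfy4, required for cross-presentation of cell-associated antigen, was at 390, 209 and 2251 CPM. With WT cells thinned to 2000 UMIs it was seen in 24.0% of selected cells (19.8% to 28.5%), 21.1% of mature cells without cDC1 genes (19.0% to 23.3%) and 77.0% of resting cDC1-like cells, but also in 84.7% of 2254 cells with 0 UMIs of both the maturation and the cDC1 genes (714 such cells, 66 mature cells without cDC1 genes, 15 resting and 1 selected cell had fewer UMIs and were left out), so that it did not mark cDC1 here. Batf3 was at 312, 354 and 218 CPM and Btla, an inhibitory receptor, at 131, 206 and 427. Itgae, the integrin CD103, was low in selected cells, at 4.31 CPM against 1.83 and 78.4. Sirpa, a cDC2 marker, was at 96.2 CPM in selected cells against 227 in mature cells without cDC1 genes.

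Genes were compared between classes where they reached 100 CPM in either class, and counted as higher or lower from a 2-fold difference. Against resting cDC1-like cells of WT, 26.4% of 2325 genes were higher in the selected cells and 21.0% were lower, and the median log2 ratio of all genes was 0.13. In cit/cit, 19.2% of 2233 genes were higher and 8.11% lower, with a median of 0.10. Every gene of the selected cells is tied to the rule, so the values that follow describe the cells and were not tested, and a gene that passed 100 CPM only through the class where it was high had to differ.

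Relative to resting cDC1-like cells, the selected cells of WT had more RNA of NF-kB, costimulation, checkpoint and cytokine genes and less RNA of MHC-II and cDC1 genes. Of the 16 genes of the NF-kB list, which also holds Stat4 and Stat5a, 11 passed (neither of these among them) 100 CPM, 10 were higher and 0 lower, with a median log2 ratio of 2.06. Relb, the NF-kB subunit of the noncanonical pathway, was at 1360 CPM in WT selected cells and 110 in resting cells (log2 ratio 3.63, 3.52 to 3.74), and at 1076 and 73.7 CPM in cit/cit (3.87). Rel was at 1153 and 196 CPM in WT, and the adaptor Traf1 at 1003 and 112. The inhibitors were higher as well, with Nfkbia at 614 against 203 CPM and Tnfaip3, which encodes A20, at 241 against 30.8 CPM in WT. Nfkb1 was the NF-kB gene that passed without reaching 2-fold, at 321 and 287 CPM. Of 11 genes in cit/cit, 10 were higher, with a median of 2.42. Against mature cells without cDC1 genes, 0 of the list's 13 genes reached 2-fold in WT, where 4.32% of all 2085 genes compared were higher and 6.19% lower, with a list median of -0.14.

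Promoters of 3 NF-kB genes and of B2m are shown because these genes were higher in selected than in resting cells and hold a match to the kappaB consensus, the letters NF-kB dimers are known to bind. The windows run from 250 bases before to 50 after the RefSeq start (GRCm38.p6), and capitals mark matches found on either strand. They lie at chr11:23770920-23771219 for Rel, chr12:55492598-55492897 for Nfkbia and chr10:19015361-19015660 for Tnfaip3, all on the minus strand, and at chr2:122147437-122147736 on the plus strand for B2m.
Rel: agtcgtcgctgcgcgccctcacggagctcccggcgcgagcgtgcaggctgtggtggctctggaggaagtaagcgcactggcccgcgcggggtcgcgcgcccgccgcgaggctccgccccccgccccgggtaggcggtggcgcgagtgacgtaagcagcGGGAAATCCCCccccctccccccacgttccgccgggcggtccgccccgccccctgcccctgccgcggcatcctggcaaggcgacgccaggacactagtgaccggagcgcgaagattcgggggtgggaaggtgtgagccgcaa
Nfkbia: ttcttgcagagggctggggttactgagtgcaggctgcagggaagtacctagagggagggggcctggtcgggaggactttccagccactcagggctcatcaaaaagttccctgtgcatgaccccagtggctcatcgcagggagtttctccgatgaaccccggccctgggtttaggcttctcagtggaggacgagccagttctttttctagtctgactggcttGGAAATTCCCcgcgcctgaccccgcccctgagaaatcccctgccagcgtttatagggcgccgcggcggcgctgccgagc
Tnfaip3: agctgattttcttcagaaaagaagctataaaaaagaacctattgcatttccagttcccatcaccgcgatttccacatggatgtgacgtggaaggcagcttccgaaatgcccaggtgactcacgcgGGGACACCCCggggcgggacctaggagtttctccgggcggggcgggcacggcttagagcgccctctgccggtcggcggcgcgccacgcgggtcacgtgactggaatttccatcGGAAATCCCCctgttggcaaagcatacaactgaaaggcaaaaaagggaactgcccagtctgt
B2m: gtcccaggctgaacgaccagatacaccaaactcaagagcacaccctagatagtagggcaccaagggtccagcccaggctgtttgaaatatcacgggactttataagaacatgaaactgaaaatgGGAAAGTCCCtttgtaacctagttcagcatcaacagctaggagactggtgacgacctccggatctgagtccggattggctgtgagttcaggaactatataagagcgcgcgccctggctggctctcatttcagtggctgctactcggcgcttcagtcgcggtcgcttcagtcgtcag
The Rel window holds 2 overlapping matches and the Tnfaip3 window 2 separate ones, while a second annotated Tnfaip3 start had 0. Of the 14 genes of the list with a window 7 held a match, and without Stat4 and Stat5a 6 of 12, against 9.55% of 27025 genes overall (8.46% of 32851 windows). Of the 4 maturation genes of the rule, Fscn1 and Cacnb3 had a window and neither held a match. A match describes the letters in the window and is not evidence of binding.

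Costimulatory genes differed in both directions. Of 9 genes, 5 passed, 4 were higher and 1 lower in WT selected than in resting cDC1-like cells, with a median log2 ratio of 2.33. Cd40, which receives the signal of helper T cells, was at 189 against 37.7 CPM in WT and 173 against 51.6 in cit/cit. Cd83, which stabilises MHC-II at the surface, was at 1062 against 184 CPM in WT and 602 against 120 in cit/cit. Icosl was at 354 against 39.0 CPM in WT. Cd86, a ligand of CD28, was instead lower, at 143 against 308 CPM (log2 ratio -1.11, -1.24 to -0.98), and Cd80, the other ligand, was at 77.1 against 76.2 CPM. Checkpoint and death receptor genes gave 5 higher and 1 lower of 6 that passed, with a median of 3.88. Cd274, which encodes PD-L1, was at 344 against 50.7 CPM, Tnfrsf4 (OX40) at 212 against 2.02 and Pvr, the ligand of DNAM-1 and TIGIT, at 121 against 6.21. Havcr2 (TIM-3), carried by resting cDC1, was the lower gene, at 62.4 against 466 CPM.

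Il12b (ENSMUSG00000004296, GRCm38 chr11:44400063-44414033, plus strand), the p40 subunit of IL-12 and a marker named for these cells, was at 391 CPM in WT selected cells (373 to 409), 98.8 in mature cells without cDC1 genes and 12.0 in resting cDC1-like cells. The cit/cit levels were 310 CPM (272 to 351), 86.0 and 0.0996 (1 UMI). Selected cells were the highest of the 3 classes in both libraries, with a log2 ratio over other mature cells of 1.98 (1.87 to 2.10) in WT and 1.85 (1.63 to 2.07) in cit/cit. Il12b UMIs lay in 160 of 389 WT cells (41.1%), with at most 114 in a cell. Among cit/cit cells they lay in 15 of 80 cells (18.8%), and 1 cell held 102 of the 245 UMIs, without which the level was 185 CPM. Another cit/cit cell held 64 UMIs. The cit/cit level, and its rank over other mature cells, thus rested largely on these cells. After each cell was thinned to 2000 UMIs, Il12b was seen in 26.3% of WT selected cells (22.0% to 31.0%) and 7.36% of mature cells without cDC1 genes (6.06% to 8.84%). The cit/cit shares were 12.5% (6.16% to 21.8%) and 5.64% (4.35% to 7.17%), whose intervals overlap. In resting cDC2-like cells of WT, Il12b was seen in 1.64% of unthinned cells. The p35 subunit gene Il12a had 0 UMIs in the selected cells of both libraries.

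Of 15 cytokine genes, 5 passed against resting cells of WT, with 4 higher and 1 lower and a median log2 ratio of 4.33. The lower gene was Tgfb1, a suppressive cytokine, at 58.1 against 193 CPM (-1.73). Il15 and its presenting receptor chain Il15ra, which together sustain CD8 T and NK cells, were higher in WT selected cells than in both other classes. Il15 was at 498 CPM, against 244 in mature cells without cDC1 genes and 60.2 in resting cells, and Il15ra at 395 against 168 and 9.53. In cit/cit the selected cells had 176 CPM of Il15 and 137 of Il15ra, close to the 190 and 109 CPM of mature cells without cDC1 genes. Il4i1, an amino acid oxidase that restrains T cells, was at 730 CPM in WT selected cells against 877 and 36.4. Ccl5, a T cell-attracting chemokine, was at 3788 CPM in WT and 3796 in cit/cit, below the 4888 and 6763 CPM of mature cells without cDC1 genes. Ccl22, a ligand of CCR4, was at 135 CPM in WT selected cells, 35.6 in other mature cells and 1.73 in resting cells, and in cit/cit at 44.2, 17.9 and 0.398. Cxcl16, the ligand of CXCR6, was at 557, 428 and 77.0 CPM in WT. Cxcl9, a ligand of CXCR3, went the other way against resting cells, at 44.3, 18.3 and 216 CPM. Ccl17 had 0 UMIs in the selected cells of both libraries.

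Genes of the MHC-I pathway gave 8 higher and 0 lower of 14 that passed in WT selected against resting cells, with a median log2 ratio of 1.13. Nlrc5, the transactivator of MHC-I genes, was at 834 against 117 CPM (2.84, 2.73 to 2.95), B2m at 2926 against 1357 and H2-K1 at 2039 against 916. The same list in cit/cit gave 2 higher and 1 lower of 14, near the shares of all genes (19.2% and 8.11%), with a median of 0.35, and B2m was at 2097 against 1332 CPM. MHC-II genes gave 0 higher and 9 lower of 10 in WT, with a median of -1.57. Ciita, the transactivator of MHC-II genes, was at 154 CPM in selected and 719 in resting cells, H2-Ab1 at 1992 and 7126, and Cd74, the invariant chain, at 8159 and 17530. For cit/cit, 0 were higher and 2 lower of 10, with Ciita at 432 against 609 CPM and H2-Ab1 at 5348 against 8895. Whether these lists differed between the libraries was not tested.

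Of 23 cDC1 identity genes outside the rule, 17 passed, with 1 higher and 13 lower than in resting cells of WT and a median of -1.94. The higher gene was Ly75 (DEC-205, an endocytic receptor), at 900 CPM in WT selected cells against 122 in resting cells. Id2, which opposes E proteins during DC development, was at 1120 against 573 CPM. Rab7b, a late endosomal GTPase, was at 21.1 against 258, Ppt1, a lysosomal thioesterase, at 153 against 1440, and Clnk, a signaling adaptor, at 7.10 against 144 CPM. Genes of ER folding gave 1 higher and 6 lower of 11 in WT, with a median of -1.21. The cytoskeleton list gave 5 higher and 1 lower of 9, with Marcksl1 at 522 against 27.6 CPM and Tmsb10 at 687 against 2305. The BCL2 family gave 3 higher and 0 lower of 6, among them the proapoptotic Bcl2l11 (BIM), at 213 against 39.0 CPM, and Bcl2l14, at 550 against 33.8. Of the cholesterol genes, 5 of 6 were higher, including the sterol exporter Abcg1, at 445 against 83.0 CPM, and Apol7c, an apolipoprotein L, at 1804 against 368. The immediate-early genes gave 4 higher and 3 lower of 10, the receptors of migration 1 higher and 1 lower of 2, and the pDC genes 1 higher and 3 lower of 4. From the interferon-stimulated and the innate receptor lists, 1 gene each passed and stayed under 2-fold.

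The leading genes by log2 ratio against resting cells were Dscaml1, a cell adhesion molecule (10.62), Oprd1, the delta opioid receptor (10.27), Adcy6, an adenylyl cyclase (7.97), and Tmem150c (7.85), followed by Cacnb3, Socs2, Fscn1, Synpo2, Ccr7 and 1810064F22Rik. Dscaml1 was at 909 CPM in WT selected cells against 0.578 in resting cells, and at 204 against 0.0996 in cit/cit. Oprd1 was at 178 CPM in WT against 0.144, which is 1 UMI, so that its log2 ratio has an interval of 7.79 to 15.58. Lowest were Clnk (-4.34), the calcium channel genes Cacnb2 (-3.82) and Cacna1e (-3.81), Olfm1 (-3.77), Ipcef1 (-3.75), Itga8 (-3.69), Anxa1 (-3.61), Rab7b (-3.61), Tlr3 (-3.58) and Ifi205 (-3.56).

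**Figure D2:**
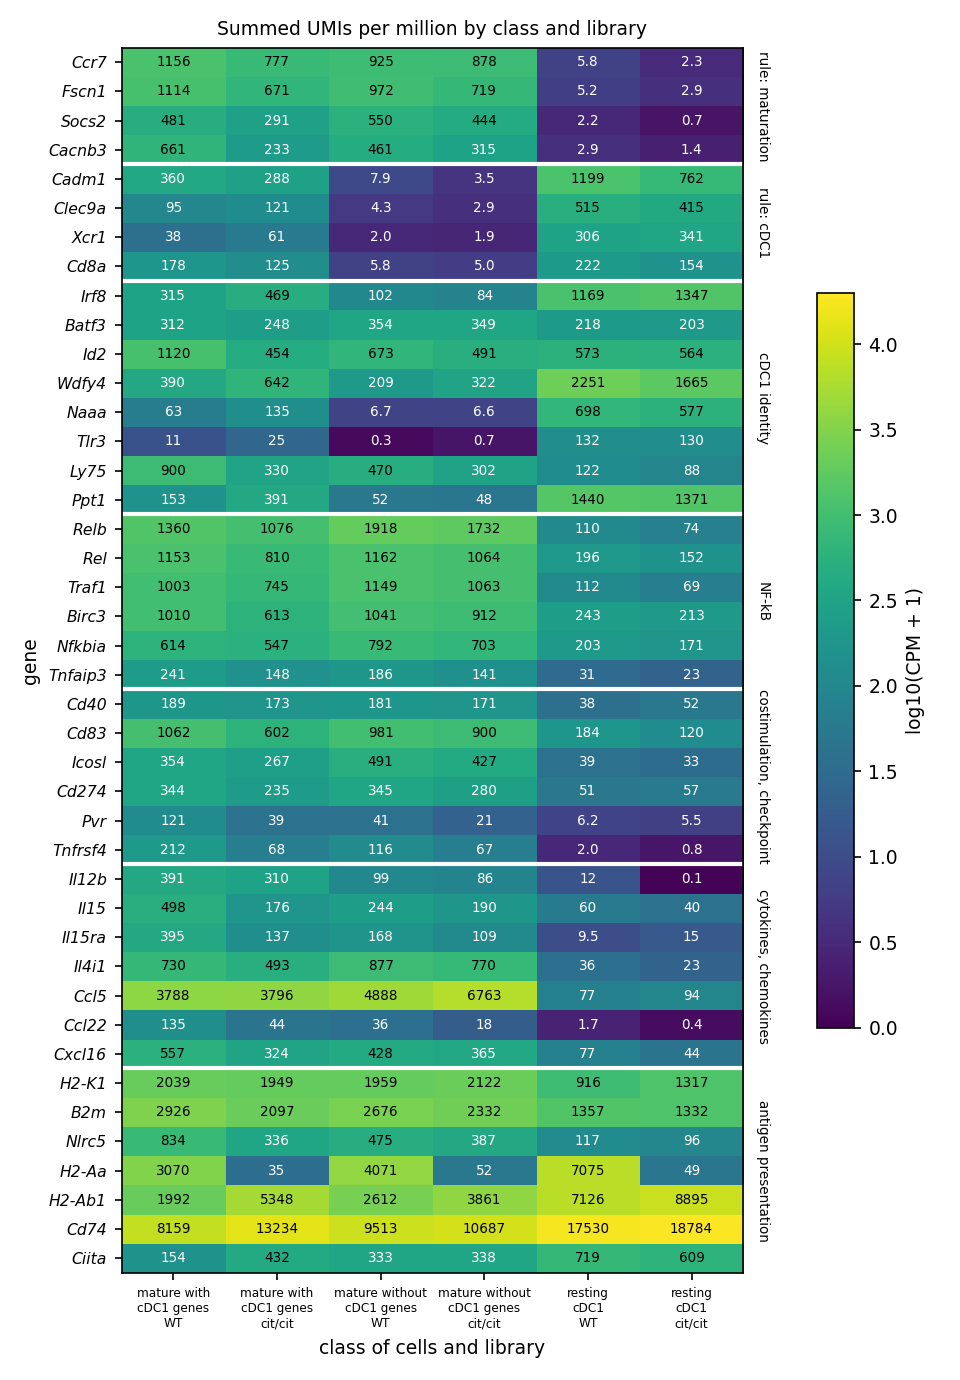
Levels of genes in selected cells, mature cells without cDC1 genes and resting cDC1-like cells of each library; numbers are CPM of summed UMIs and color is log10(CPM + 1). In WT the selected cells held maturation genes at the level of mature cells (Ccr7 1156 and 925 CPM) and Irf8 between the other classes (315, 102 and 1169 CPM).

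**Figure D3:**
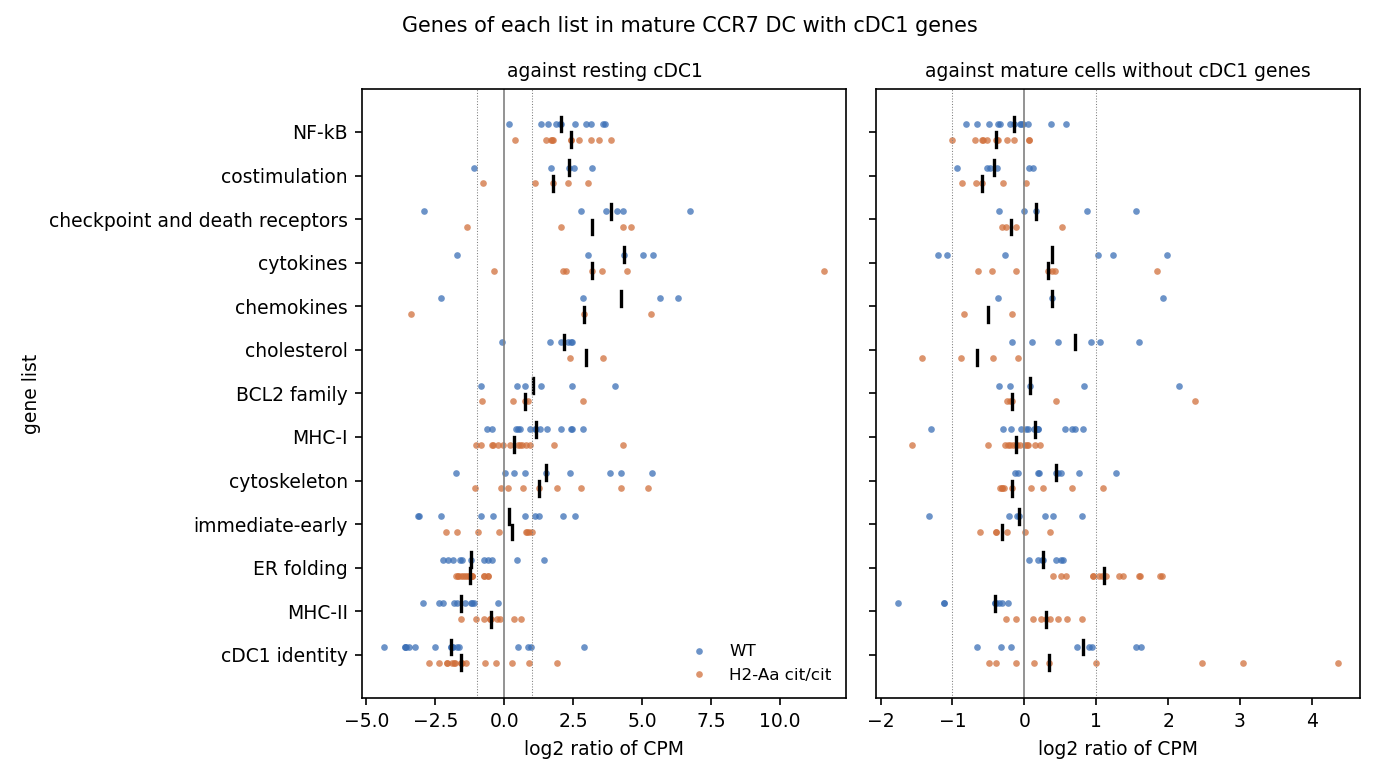
Log2 ratio of CPM of each gene that reached 100 CPM (dots) and its list median (black line), for selected cells against resting cDC1-like cells (left) and mature cells without cDC1 genes (right) in WT (blue) and cit/cit (orange); dotted lines mark 2-fold. Medians spread from 4.33 for cytokines to -1.94 for cDC1 identity in WT on the left. On the right cytokines were at 0.38 and cDC1 identity at 0.82 in WT. The cDC2 list is not drawn, and its WT medians were -0.63 against resting cells and -1.27 against other mature cells, from 4 genes each.

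Against mature cells without cDC1 genes, far fewer genes differed. In WT, 4.32% of 2085 genes were higher and 6.19% lower in the selected cells, with a median log2 ratio of all genes of -0.03. Costimulation gave 0 of 6 in either direction, MHC-I 0 higher and 1 lower of 14, the lower gene being H2-M2 at 368 against 905 CPM, and MHC-II 0 higher and 3 lower of 9. Cytokines gave 3 higher (Il12b, Il15 and Il15ra) and 2 lower of 6. The cDC1 identity list gave 2 higher, Irf8 and Ppt1, and 0 lower of 8, and the cDC2 list 0 higher and 3 lower of 4. Zeb2, a transcription factor of cDC2 and pDC, was at 337 against 1141 CPM in WT (log2 ratio -1.76), and Gpr183, the oxysterol receptor that positions cDC2 in the spleen, at 133 against 678 (-2.35). In cit/cit selected cells, whose share lay below that of the resting cDC2-like reference, Zeb2 was at 1208 against 1326 CPM and Gpr183 at 363 against 700.

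Cadm1 (5.50) and Cd8a (4.94) came highest in WT by selection, followed by P3h2, a collagen prolyl hydroxylase (3.16), Mpeg1, the pore-forming perforin-2 (2.90), Fnip2, a folliculin partner (2.68), Mab21l3 (2.57), Zdhhc14, a protein palmitoyltransferase (2.56), Laptm4b, a lysosomal membrane protein (2.26), Gclc, the catalytic subunit that limits glutathione synthesis (2.22), and Aff3, a nuclear protein (2.17). Gclc (ENSMUSG00000032350, GRCm38 chr9:77754535-77794485, plus strand) was at 1728 CPM in WT selected cells (1691 to 1767), 372 in mature cells without cDC1 genes and 43.2 in resting cells. Zdhhc14 (ENSMUSG00000034265, GRCm38 chr17:5492557-5753811, plus strand) was at 1222, 207 and 110 CPM, Mab21l3 at 477, 80.2 and 25.8, and Laptm4b at 464, 97.2 and 29.5. These 4 were thus highest in the selected cells. P3h2 (313, 35.0 and 366 CPM), Mpeg1 (295, 39.4 and 589) and Fnip2 (168, 26.1 and 241) were instead highest in resting cDC1-like cells, and Aff3 was at 335, 74.6 and 220 CPM.

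After thinning to 2000 UMIs, Gclc was seen in 61.9% of WT selected cells and 22.1% of mature cells without cDC1 genes, and Zdhhc14 in 62.6% and 16.6%. Before thinning, the shares were 76.3% and 33.6% for Gclc. In resting cDC2-like cells, at a median of 8569 UMIs, Gclc was seen in 16.7% of unthinned cells. Bcl2l14, a BCL2 family member, was at 550, 124 and 33.8 CPM (log2 ratio over mature cells without cDC1 genes 2.15, 2.05 to 2.25). Lowest against mature cells without cDC1 genes were Gm32509 (-3.05), the calcium channel gene Ryr3 (-2.87), the Wnt antagonist gene Dkk2 (-2.83), Gm12159 (-2.62), the adhesion gene Dscam (-2.61), the ganglioside synthase gene St8sia1 (-2.37), Slc44a5 (-2.35), Gpr183 (-2.35), Gm33843 (-2.23) and the cystine transporter gene Slc7a11 (-2.21). Dscam was at 414 CPM in WT selected cells against 2520. Of the 10 genes highest against mature cells without cDC1 genes, 5 had a promoter window and 0 held the kappaB match. Of the 10 highest against resting cells, 6 had a window and 2 held a match, Oprd1 and Tmem150c. The share over all 27025 genes was 9.55%.

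The 8 leading genes outside the rule were summed per cell as UMIs per 10000, which compares cells of unequal depth. The median was 40.4 in WT selected cells (quartiles 9.23 and 64.5), 1.20 in mature cells without cDC1 genes and 11.3 in resting cDC1-like cells. In WT, 321 of 389 selected cells (82.5%) reached 5 per 10000, as did 498 of 642 resting cDC1-like cells (77.6%). By cDC1 UMIs, the share of WT mature cells at 5 or more was 20.1% of 1296 cells with none, 47.2% of 197 with 1, 67.9% of 106 with 2, 79.4% of 63 with 3 and 90.5% of 220 with 4 or more. The 8 genes were chosen as higher in WT selected cells than in WT mature cells without cDC1 genes. The WT difference across the threshold of 2 cDC1 UMIs is therefore by construction and is only a description. Of the WT mature cells without cDC1 genes, 353 also reached 5 per 10000. In cit/cit the median was 3.71 in selected cells, 0.00 in mature cells without cDC1 genes and 9.84 in resting cDC1-like cells. There 33 of 80 selected cells (41.3%) and 615 of 757 resting cells (81.2%) reached 5. Of the 32 selected cells with 4 or more cDC1 UMIs, 46.9% did.

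**Figure D4:**
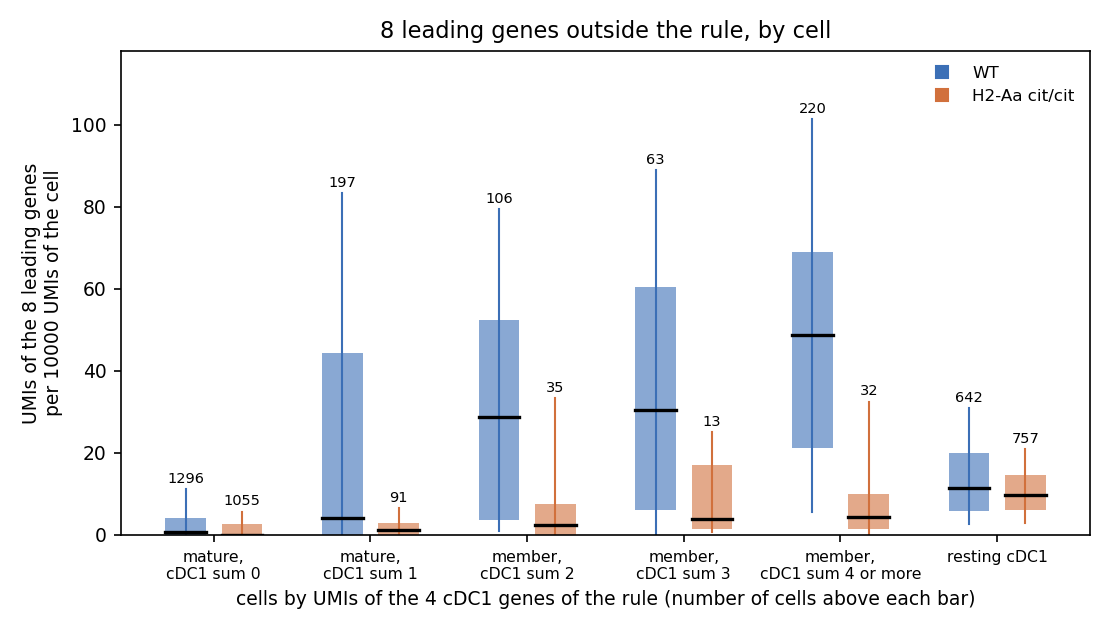
UMIs of the 8 leading genes per 10000 UMIs of the cell, for mature cells by their UMIs of the 4 cDC1 genes of the rule and for resting cDC1-like cells, in WT (blue) and cit/cit (orange). Black lines are medians, boxes run from the lower to the upper quartile, thin lines from the 10th to the 90th percentile over cells, and cell numbers stand above. WT medians went from 0.787 with 0 cDC1 UMIs to 48.8 with 4 or more. The 8 genes were chosen as higher in WT selected cells than in WT mature cells without cDC1 genes, so that WT difference is by construction.

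The selected cells were not uniform. The 321 WT cells at or above 5 per 10000 had 440 CPM of Il12b, 552 of Il15 and 62.4 of Sirpa, and the 68 below it had 49.3, 128 and 330. Zeb2 was at 184 CPM in the former and 1393 in the latter, and Gpr183 at 64.1 and 607. Ccl5, seen in 91.5% of WT selected cells, was at 3719 and 4262 CPM, and Relb at 1295 and 1809. In cit/cit the 33 cells above the value had 892 CPM of Irf8, against 151 in the other 47. Their Il12b, at 495 and 171 CPM, rested on 1 cell in each set, with 102 of 168 and 64 of 77 UMIs, without which the levels were 204 and 29.3. Zeb2 there was at 686 and 1602 CPM, and Cd8a was higher in the cells without the leading genes, at 191 against 38.3. The 8 genes were chosen from WT cells, so they split WT by construction.

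WT selected cells were also ordered by their maturation UMIs per 10000, in tertiles set at 26.5 and 40.9. From the lowest to the highest tertile Ccr7 itself, used by the rule, went from 615 to 1651 CPM. Wdfy4 went from 997 to 49.2 CPM, Naaa from 178 to 7.13, Ppt1 from 387 to 34.3 and Cadm1 from 714 to 190. MHC-II genes summed to 28252, 13395 and 9470 CPM over the tertiles, and MHC-I genes to 8806, 11470 and 12466. Il15 was at 230, 584 and 676 CPM, whereas Il12b was at 519, 395 and 260, the reverse order. Gclc was at 1780, 1454 and 1958 CPM with no such order. Of the 80 cit/cit cells, 54 lay in the lowest tertile and 13 in each of the others.

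H2-Aa was compared between the libraries as a check of the labels. It had 3070 CPM in WT and 35.4 in cit/cit selected cells (log2 ratio -6.44, -7.03 to -5.91), and was likewise low in the other cit/cit classes, at 52.1 and 48.7 CPM against 4071 and 7075 in WT. Between cit/cit and WT selected cells, 8.55% of 2176 genes were higher and 8.27% lower, with a median log2 ratio of -0.04. Both counts moved with the choice of cells, as given under how the results depend on the processing. These values compare cells of unequal makeup, as the maturation sums, doublet scores and cDC2 genes above show, and their part was not tested.

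Genes of ER folding were higher in cit/cit selected cells, with 11 higher and 0 lower of 14 and a median log2 ratio of 2.34. Hspa5, the ER chaperone BiP, was at 1201 CPM against 159 in WT (2.92, 2.78 to 3.06), Hsp90b1 at 712 against 104 and Manf, a secreted ER stress factor, at 449 against 46.9. Resting cDC1-like cells showed the same list at 15 higher and 0 lower of 16 with a median of 2.39, and mature cells without cDC1 genes at 5 higher and 0 lower of 11 with a median of 0.89, so the difference was not particular to the selected cells. Of all genes, 5.28% of 1894 were higher and 1.53% lower in resting cells, and 0.837% of 2031 and 0.689% in mature cells without cDC1 genes. With the highest doublet scores left out, the list's median in selected cells was 1.38, with 7 higher and 0 lower of 12.

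MHC-II genes other than H2-Aa were higher in cit/cit selected cells, with 7 higher and 1 lower (H2-Aa) of 10 and a median of 1.29. H2-Ab1, the beta chain partner of H2-Aa, was at 5348 against 1992 CPM, Cd74 at 13234 against 8159 and Ciita at 432 against 154. The list's median was 0.10 in resting cDC1-like cells and 0.18 in mature cells without cDC1 genes. Of cDC2 genes 2 were higher and 0 lower of 4, with Zeb2 at 1208 against 337 CPM, pDC genes gave 2 higher and 0 lower of 3, and Il1b, a proinflammatory cytokine, was at 174 against 44.3. Restricted to cells with at least 15 maturation UMIs (297 WT and 39 cit/cit), the MHC-II median was 1.11 and the ER folding median 2.08. In the lowest maturation tertile, with 54 of the 80 cit/cit cells, ER folding genes summed to 7516 CPM in cit/cit against 1969 in WT, and in the next tertiles to 2347 against 1541 and 2918 against 1459. MHC-II genes without H2-Aa summed to 26720 CPM in cit/cit against 13894 in WT over all selected cells, and over the tertiles to 32181 against 22986, 14483 against 11004 and 11416 against 7872.

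The leading genes of WT were lower in cit/cit selected cells, which is a description, since they were named for being high in WT selected cells. Gclc was at 210 against 1728 CPM (-3.04, -3.27 to -2.82), Zdhhc14 at 244 against 1222 (-2.32), P3h2 at 54.4 against 313 (-2.52), Mab21l3 at 101 against 477 and Laptm4b at 105 against 464. With at least 15 maturation UMIs Gclc was at a log2 ratio of -2.24, Zdhhc14 at -1.62, P3h2 at -2.95, Mab21l3 at -1.32 and Laptm4b at -1.35. Among cells with the leading genes they were at -2.07, -1.39, -1.57, -1.21 and -1.19, in that order. Without the highest doublet scores P3h2 was at -3.99. Some of these genes were lower in the other cit/cit classes too. In mature cells without cDC1 genes Gclc was at 85.9 against 372 CPM, Laptm4b at 17.4 against 97.2 and P3h2 at 1.76 against 35.0, and in resting cDC1-like cells Gclc was at 22.0 against 43.2 and P3h2 at 176 against 366. In resting cells Laptm4b and Zdhhc14 hardly differed. After thinning to 2000 UMIs Laptm4b was seen in 4.02% of cit/cit and 4.47% of WT resting cells, and Zdhhc14 in 10.6% and 10.5%. The difference was not shown to be particular to the selected cells. Apol7c was at 458 against 1804 CPM (-1.98), and the protease gene Asprv1 at 36.7 against 245 (-2.74). Cholesterol genes gave 0 higher and 5 lower of 6, with a median of -1.50, and with at least 15 maturation UMIs 3 were lower of 6, with a median of -0.95. NF-kB genes gave 0 higher and 1 lower of 12 and a median of -0.47, with Relb at 1076 against 1360 CPM. Il15 (-1.50), Il15ra (-1.53) and Ccl22 (-1.61) were lower, Ccl5 was at 0.00 and Il12b at -0.34 (-0.53 to -0.14). Without the cit/cit cell that held 102 Il12b UMIs the latter ratio was -1.08, and with at least 15 maturation UMIs it was 0.57 with that cell and -0.29 without it. With at least 15 maturation UMIs Il15 (-0.90), Il15ra (-0.81) and Ccl22 (-0.97) were under 2-fold. Among cells with the leading genes these 3 were at -0.74, -0.73 and -0.59.

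Of the genes highest in cit/cit by the end of the interval nearest 0, Creld2 (3.94), Pdia4 (3.77), Manf (3.26), Pdia6 (3.25), Hspa5 (2.92), Sdf2l1 (2.89) and Hsp90b1 (2.77) belong to ER folding, and Bach2, a transcriptional repressor, was at 129 against 14.4 CPM (3.16). B3galt1 (5.77) and Hmox1, heme oxygenase (4.01), rested on few cells, since 80 of 102 B3galt1 UMIs and 97 of 107 Hmox1 UMIs came from 1 cell each. Lowest beside H2-Aa, Gclc and Asprv1 were P3h2, Zdhhc14, Mab21l3 (-2.24), Atxn1 (-2.16), Dscaml1 (-2.16), Laptm4b (-2.15) and Apol7c. Irf8 was at 469 against 315 CPM and Naaa at 135 against 63.1. Both depended on the cells with high doublet scores, without which their log2 ratios were -0.06 and -1.08 rather than 0.58 and 1.10. With at least 15 maturation UMIs they were at 0.99 and 1.30, and among cells with the leading genes at 1.41 and 1.77.

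**Figure D5:**
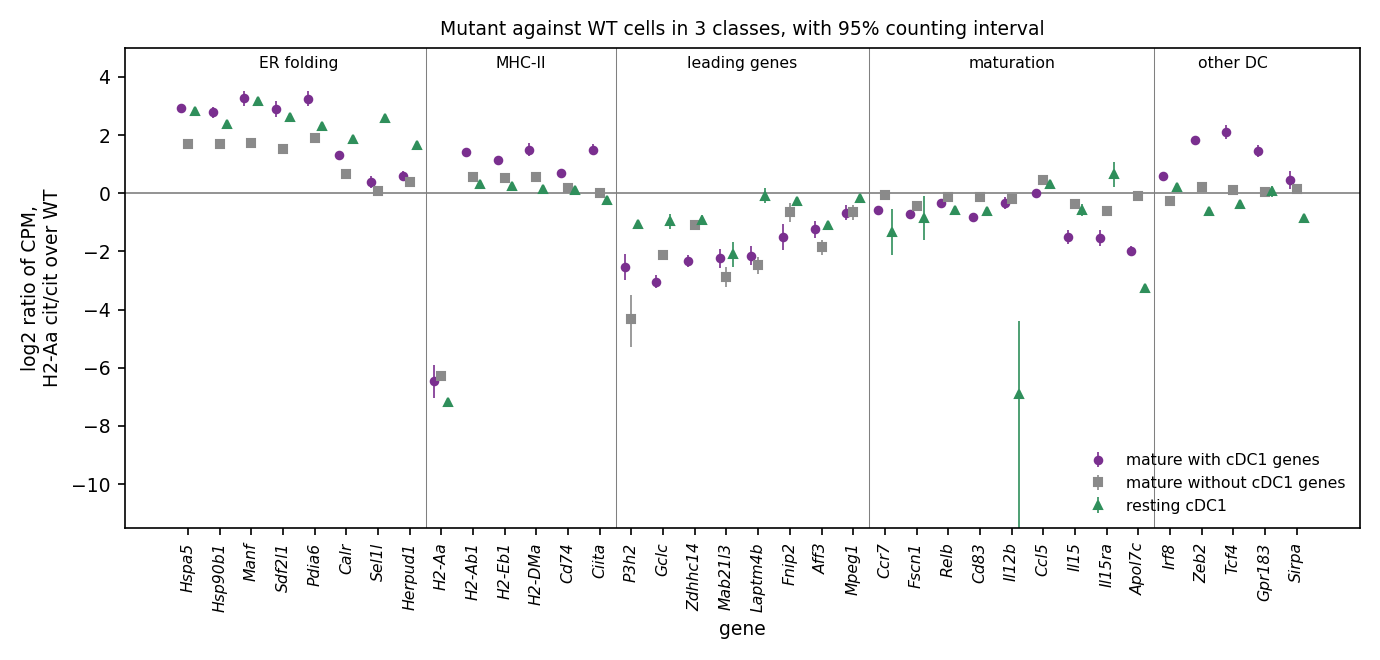
Log2 ratio of CPM, cit/cit over WT, in selected cells (circles), mature cells without cDC1 genes (squares) and resting cDC1-like cells (triangles), with 95% counting intervals that do not cover the spread between cells or mice. ER folding genes were above 0 in each class (Hspa5 2.92 in selected cells), H2-Aa was far below 0 in each, and Gclc was at -3.04 in selected cells.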

How the data were processed

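The authors deposited raw UMI counts, not normalized, from Cell Ranger 5.0.1 with GRCm38 (mm10) as the genome; the annotation and the counting of introns are not given in the sources used here. Only called cells are in them, at least 500 UMIs each, and all 19339 had the 200 genes the study required. No mitochondrial limit was set and no doublets were removed. The cell rule, members and gene lists were chosen with earlier results of these data known. For each class of cells, UMIs of a gene were added up and expressed as CPM with exact Poisson intervals, log2 ratios had exact binomial intervals (95%), and shares Clopper-Pearson intervals. Ratios against 0 UMIs were bounds from 3 UMIs. Mice were pooled, so intervals cover counting error only, and those of levels and log2 ratios also leave out the spread between cells. Genes named are those of the rule, of the label and of the lists, and the 10 highest and 10 lowest in each comparison (for H2-Aa cit/cit against WT by the interval end nearest 0). The resting cDC2-like reference, the tertiles and the splits by leading genes were added after seeing the data. Analyses used Python 3.11.15, numpy 2.4.6, scipy 1.17.1, pandas 2.3.3, scanpy 1.11.5 (Scrublet), scikit-learn 1.9.0 and matplotlib 3.10.9. The code for ratios was run on simulated independent counts. These hold no spread between cells or mice, so they cannot show whether the intervals fit the data. Gene positions are from GENCODE vM21 and promoters from RefSeq. Alternatives were other thresholds, scalings and cell filters, and a maturation sum of at least 15 UMIs and cells with the leading genes were chosen after seeing the data.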

Additional observations from a re-analysis of the deposited data

Results flagged for a closer look

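Tcf4, which encodes the E protein E2-2 that defines plasmacytoid DC, went in opposite directions in the libraries. In WT its log2 ratio in selected against resting cDC1-like cells was -1.33 (-1.51 to -1.16), at 74.7 against 188 CPM, and in H2-Aa cit/cit it was 1.13 (0.93 to 1.32), at 321 against 147 CPM. In the latter, 57 of its 254 UMIs in selected cells came from 1 cell, and UMIs lay in 41 of 80 cells. The difference was not tested.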

How the results depend on the processing

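The WT to H2-Aa cit/cit ratio of the share of selected cells, 7.17, was 9.28 and 10.1 with at least 3 and 4 cDC1 UMIs, 9.82 with sums scaled to 5000 UMIs and 11.2 with at least 15 maturation UMIs. Among mature cells, 3.17 became 4.10, 4.48 and 4.25 under the same cDC1 and scaling settings. The order was the same under all settings run. Counts of genes moved with the CPM minimum, which sets how many genes are compared. At 50 CPM, 883 genes were lower against resting cells, 141 higher and 230 lower against mature cells without cDC1 genes, and 447 higher in H2-Aa cit/cit, against 489, 90, 129 and 186 at 100 CPM. At 200 CPM, 368 were higher and 233 lower against resting cells, 58 and 69 against mature cells, and 79 and 115 in H2-Aa cit/cit against WT, where 100 CPM gave 614 and 489, 90 and 129, and 186 and 180. With at least 4 cDC1 UMIs, which leaves 32 H2-Aa cit/cit cells, 300 were higher and 323 lower. The lower genes in H2-Aa cit/cit were 79 with at least 15 maturation UMIs and 86 among cells with the leading genes, and the cause was not tested. Of 741 log2 ratios of named genes recomputed, 715 kept their sign and 26 changed it, of which 2 had been at least 2-fold. These were Hmox1, at -0.52 in place of 4.01, and Naaa, at -1.08 in place of 1.10, both without the highest doublet scores and H2-Aa cit/cit against WT in selected cells. In that setting and contrast Wdfy4 was at -0.76 in place of 0.72, Irf8 at -0.06 in place of 0.58 and Il12b at 0.25 in place of -0.34. Il12b was at 0.57 with at least 15 maturation UMIs and at 0.17 among cells with the leading genes, and without 1 cit/cit cell that held 102 UMIs at -0.29 and -1.11, and at -1.08 over all selected cells. No paired analysis was possible because each genotype has 1 library. The number of cells limits the 80 H2-Aa cit/cit selected cells, where 3 UMIs are 3.79 CPM against 0.646 in WT.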
